A study of Saccharomyces cerevisiae with 28 samples.

Results

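The biotin synthesis and uptake genes of baker's yeast, BIO5, BIO3, BIO4, BIO2 and VHT1, were read on 28 Affymetrix arrays. They were chosen by gene symbol in the probe annotation. All 5 had a probe set of their own, 1 each, among 5498 S. cerevisiae probe sets for 5449 genes. BIO5 (YNR056C), BIO4 (YNR057C) and BIO3 (YNR058W) lie next to one another on chromosome XIV. BIO2 (YGR286C) and VHT1 (YGR065C) lie apart from each other on chromosome VII.

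Biotin is the cofactor of carboxylases, among them acetyl-CoA carboxylase and pyruvate carboxylase. Many strains of S. cerevisiae cannot make it from the start of the pathway, but can complete it from the intermediate keto-aminopelargonic acid (KAPA). Bio5 takes up KAPA, Bio3 turns it into diaminopelargonic acid, Bio4 turns that into dethiobiotin, and Bio2, an iron-sulfur enzyme of the mitochondrion, inserts the sulfur that makes biotin. Vht1 imports finished biotin together with protons. In S. cerevisiae the regulator Vhr1 is known to activate VHT1 and BIO5 when biotin is scarce.

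Poly(A) RNA came from 2 baker's yeasts, named LS and HS in the labels, after 60 min of fermentation in a medium labelled LF with 0, 5, 10, 20, 30, 40 or 50% sucrose. Each of the 14 groups of yeast by sucrose had 2 replicate arrays. Strain genotypes, the meaning of LS and HS, the composition of the medium and its biotin content are not given in the sources used here. The labels leave it unsaid whether replicate arrays read separate cultures, and p-values measure only the spread between arrays, which may be technical. Each array reads a whole culture, so less transcript per cell and fewer cells with the transcript cannot be told apart.

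Each value is a ratio to the usual level of the same probe set over the arrays, near 1 by construction. It shows change between arrays and gives no level of one gene against another. Of the 14 LS arrays 6 stand apart, namely replicate 2 at 0, 5, 10, 20, 30 and 50% sucrose. Their S. pombe probe sets, a background for this RNA, had median ratios of 1.51 to 13.7, against 0.119 to 0.994 on the 22 others. Their S. cerevisiae values were also spread more widely, with an interquartile range of 2.09 to 2.62 on the log2 scale, against 0.729 to 2.14. The median fold between the 2 replicates of a biotin gene was 2.36 in LS, with a largest of 51.7, and 1.64 in HS, with a largest of 3.74, each over 35 pairs. The part of these arrays in a result was not tested by itself, so the main results are given with and without them. Without them the LS groups at 0, 5, 10, 20, 30 and 50% sucrose have 1 array each. The spread is then estimated from the HS replicates and the 1 LS group that keeps 2 arrays. Errors and calls for LS in that fit therefore rest mostly on the spread of HS, which was smaller for the biotin genes. Depth does not apply to arrays, and their number limits the precision.

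BIO5, the KAPA importer, showed the widest range of the 5 genes, from 0.0821 to 29.9. In LS, with replicate 1 named first, its ratios were 18.5 and 14.8 at 0% sucrose, 29.9 and 18.7 at 5%, 16.6 and 6.89 at 10%, and 16.4 and 29.8 at 20%. They were 7.16 and 10.98 at 30%, 1.11 and 0.412 at 40%, and 2.31 and 0.0821 at 50%. All 10 LS arrays up to 30% sucrose were thus above all 4 at 40 and 50%. In HS the ratios were 0.0869 and 0.142 at 0%, 1.79 and 1.06 at 5%, 0.938 and 0.899 at 10%, and 0.334 and 0.548 at 20%. They were 0.175 and 0.263 at 30%, 0.171 and 0.0883 at 40%, and 0.160 and 0.0966 at 50%. HS was highest at 5%, and its groups at 5, 10, 20 and 30% stood in falling order without overlap, while 0, 40 and 50% overlapped below them. By group mean the 5 LS groups up to 30% ranked above every other group, and none of them overlapped an HS group.

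BIO3, the aminotransferase that acts on KAPA, ran in LS at 4.50 and 1.58 at 0% sucrose, 6.81 and 2.36 at 5%, 3.93 and 1.44 at 10%, 3.77 and 11.6 at 20%, and 2.88 and 2.73 at 30%. It stood at 0.283 and 0.207 at 40% and at 0.148 and 0.146 at 50%. The LS arrays up to 30% therefore did not overlap those at 40 and 50%. In HS its ratios were 0.260 and 0.506 at 0%, 1.16 and 1.09 at 5%, 0.821 and 1.11 at 10%, and 0.492 and 0.966 at 20%. They were 0.441 and 1.03 at 30%, 0.340 and 0.613 at 40%, and 0.453 and 0.121 at 50%. Every HS array lay below every LS array up to 30% sucrose, while the HS groups, taken in order of their means, each overlapped the next HS group.

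BIO4, the dethiobiotin synthetase, had LS ratios of 3.13 and 1.55 at 0%, 4.86 and 1.01 at 5%, 3.56 and 0.421 at 10%, 3.27 and 3.74 at 20%, and 2.21 and 3.55 at 30%. They were 0.540 and 0.325 at 40%, and 1.11 and 1.84 at 50%. The LS 10% group overlapped the LS 40% group, since its low value lies between the LS 40% arrays, and that value is from an array that stands apart. In HS the 8 arrays at 5 to 30% kept between 0.855 and 1.09. Those at 0% read 0.519 and 0.572, those at 40% 0.594 and 0.427, and those at 50% 0.358 and 0.141. The HS groups at 0, 40 and 50% were thus below all HS arrays at 5 to 30%.

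BIO2, the biotin synthase, had LS ratios of 4.09 and 0.794 at 0%, 3.81 and 1.11 at 5%, 2.24 and 0.0434 at 10%, 2.64 and 2.08 at 20%, and 2.94 and 2.29 at 30%. It read 1.07 and 1.28 at 40%, and 2.27 and 0.960 at 50%. The replicates at 10% differed 51.7-fold, and the low one stands apart. In HS its ratios were 0.281 and 0.484 at 0%, 1.18 and 1.11 at 5%, 0.489 and 0.753 at 10%, and 0.319 and 0.619 at 20%. They were 0.220 and 0.652 at 30%, 0.705 and 0.829 at 40%, and 1.04 and 0.468 at 50%. In order of their means, every group of either yeast overlapped the next one down, other than HS at 5%.

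VHT1, the biotin importer, had LS ratios of 2.44 and 0.842 at 0%, 3.88 and 1.05 at 5%, 2.46 and 0.597 at 10%, 2.80 and 4.15 at 20%, and 1.43 and 3.49 at 30%. It read 0.516 and 0.363 at 40%, and 0.706 and 0.210 at 50%. In HS its ratios were 0.431 and 0.735 at 0%, 1.89 and 1.40 at 5%, 1.20 and 1.29 at 10%, and 0.646 and 1.26 at 20%. They were 0.600 and 1.21 at 30%, 0.948 and 0.895 at 40%, and 0.659 and 0.254 at 50%. Its 14 groups formed an unbroken chain in which each overlapped the next, with LS at 20% highest and LS at 50% lowest.

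**Figure D1:**
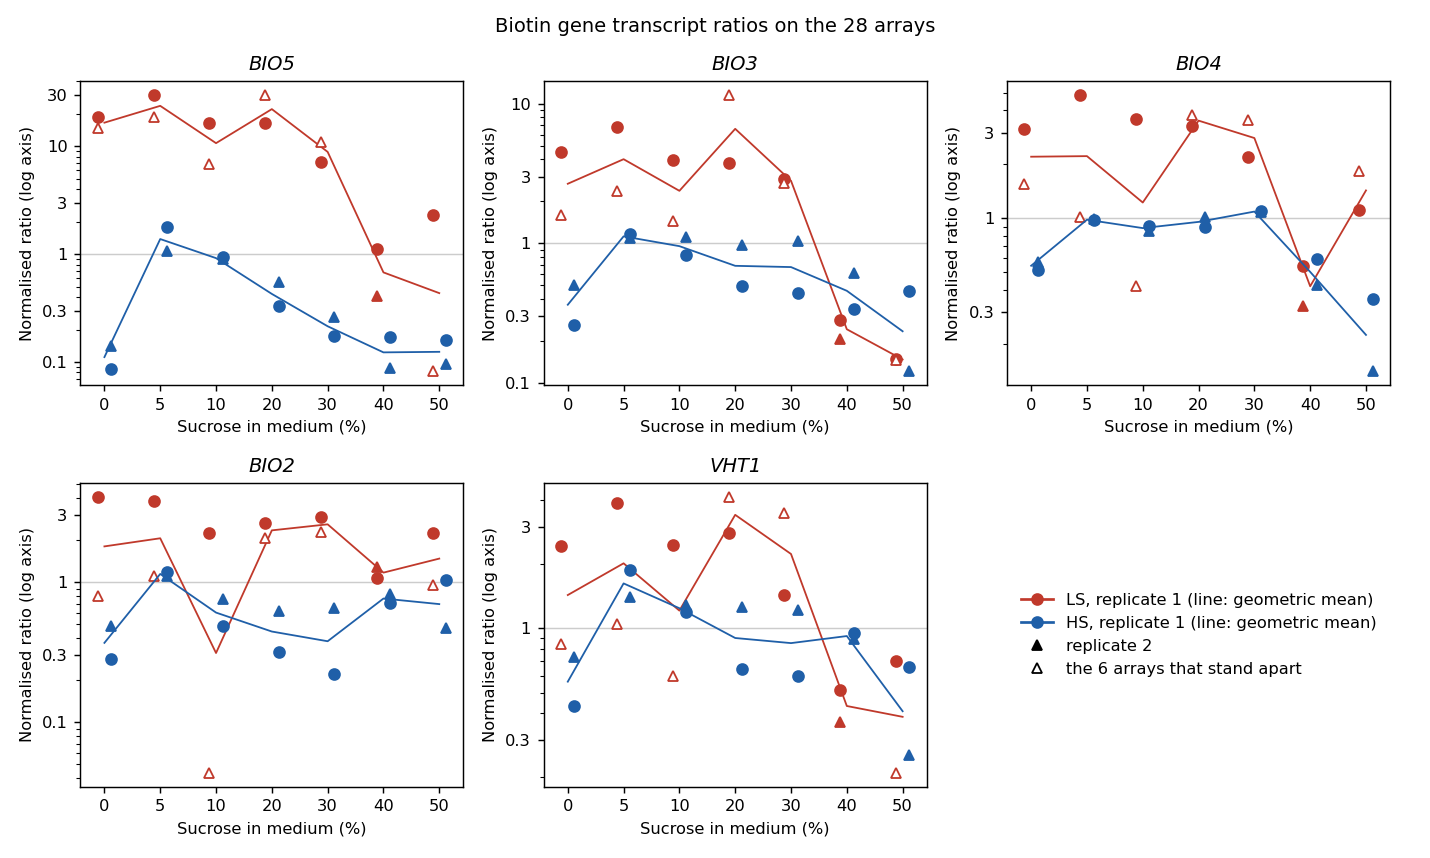
Ratio of each biotin gene on every array (log axis) against sucrose concentration in percent, with LS and HS in separate colours, lines through the group means of the log values, and the 6 arrays that stand apart marked. BIO5 and BIO3 of LS lie above their HS values from 0 to 30% sucrose, and drop between 30 and 40%.

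The first question was how LS responds to a high sugar load, with 5 to 20% sucrose (6 arrays) as the base. At 40% sucrose (2 arrays) 4 of the 5 genes were lower in limma's test with Benjamini-Hochberg adjustment over all 5498 probe sets, where 8.17% of all probe sets were called lower. The steps before Bio2 and the biotin importer were among them, and BIO2 was not. BIO5 fell by 4.71 ± 0.83 (SE) on the log2 scale, 26.2-fold, with an adjusted p of 0.000799. BIO3, the next step, fell by 4.04 ± 0.67, or 16.4-fold, with an adjusted p of 0.000484. BIO4 fell by 2.34 ± 0.69 (adjusted p = 0.0243) and VHT1 by 2.23 ± 0.70 (adjusted p = 0.0333). BIO2 differed by 0.03 ± 0.99, and its 95% interval from -2.05 to 2.11 leaves room for a change in either direction. Its base arrays read 3.81, 2.24 and 2.64 in replicate 1 and 1.11, 0.0434 and 2.08 in replicate 2, against 1.07 and 1.28 at 40%. The array that read 0.0434 stands apart. With 5% sucrose alone as the base BIO2 differed by -0.82 ± 1.22 (adjusted p = 0.713), so it was not shown to be unchanged. The median difference was -2.34 over the 5 genes and -0.25 over all probe sets.

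At 50% sucrose, against the same base arrays, 3 of the 5 genes were lower, where 11.1% of all probe sets were called lower. BIO5 fell by 5.35 ± 0.83, 40.8-fold (adjusted p = 0.000232), and BIO3 fell by 4.76 ± 0.67, 27.1-fold (adjusted p = 0.000107). VHT1 fell by 2.40 ± 0.70, 5.27-fold (adjusted p = 0.0189). BIO4 differed by -0.57 ± 0.69 (adjusted p = 0.585), with an interval from -2.02 to 0.88. For BIO2 the difference was 0.36 ± 0.99 (adjusted p = 0.820), and -0.48 ± 1.22 with 5% sucrose alone as the base. Between 50 and 40% no gene was called (0 at an unadjusted p under 0.05), with 0.0546% of all probe sets called. There BIO4 differed by 1.77 ± 0.85, without overlap of the 2 groups (adjusted p = 0.768). BIO5 was called lower at 50 than at 40% only without LS 50% replicate 1, at -3.04 (adjusted p = 0.0365).

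The falls of BIO5 and BIO3 at both concentrations were called with any 1 of the 8 arrays left out. BIO4 at 40% lost its call without LS 40% replicate 1 (adjusted p = 0.0950) or replicate 2 (adjusted p = 0.287). VHT1 at 40% kept its call in 3 of 8 such fits. It lost it without replicate 1 at 5 or 10%, replicate 2 at 20% or either LS 40% array, with adjusted p-values up to 0.298. VHT1 at 50% lost its call without LS 50% replicate 2, at -1.52 (adjusted p = 0.281). Without the 6 arrays that stand apart, which leaves 1 LS array at all concentrations but 40%, 31.9% of all probe sets were called lower at 40% and 26.8% at 50%. BIO5, BIO3, BIO4 and VHT1 were then called lower at both concentrations. The fall of BIO5 at 50% was 3.12 ± 0.63 in that fit, since the array that read 0.0821 is one of the 6.

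Neither sugar-free medium nor 30% sucrose moved a biotin gene past the threshold in LS. Of the 5 genes 0 were called at 0% and 0 at 30%, also 0 at an unadjusted p under 0.05, with 0.109% and 0.491% of all probe sets called. The differences at 0% ran from -0.57 for BIO3 to 0.65 for BIO2. At 30% they ran from -1.0 for BIO5 to 1.18 for BIO2. With 5% sucrose alone as the base BIO2 differed by -0.19 at 0% and 0.33 at 30%. For BIO5 the interval at 30% was -2.75 to 0.74.

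**Figure D2:**
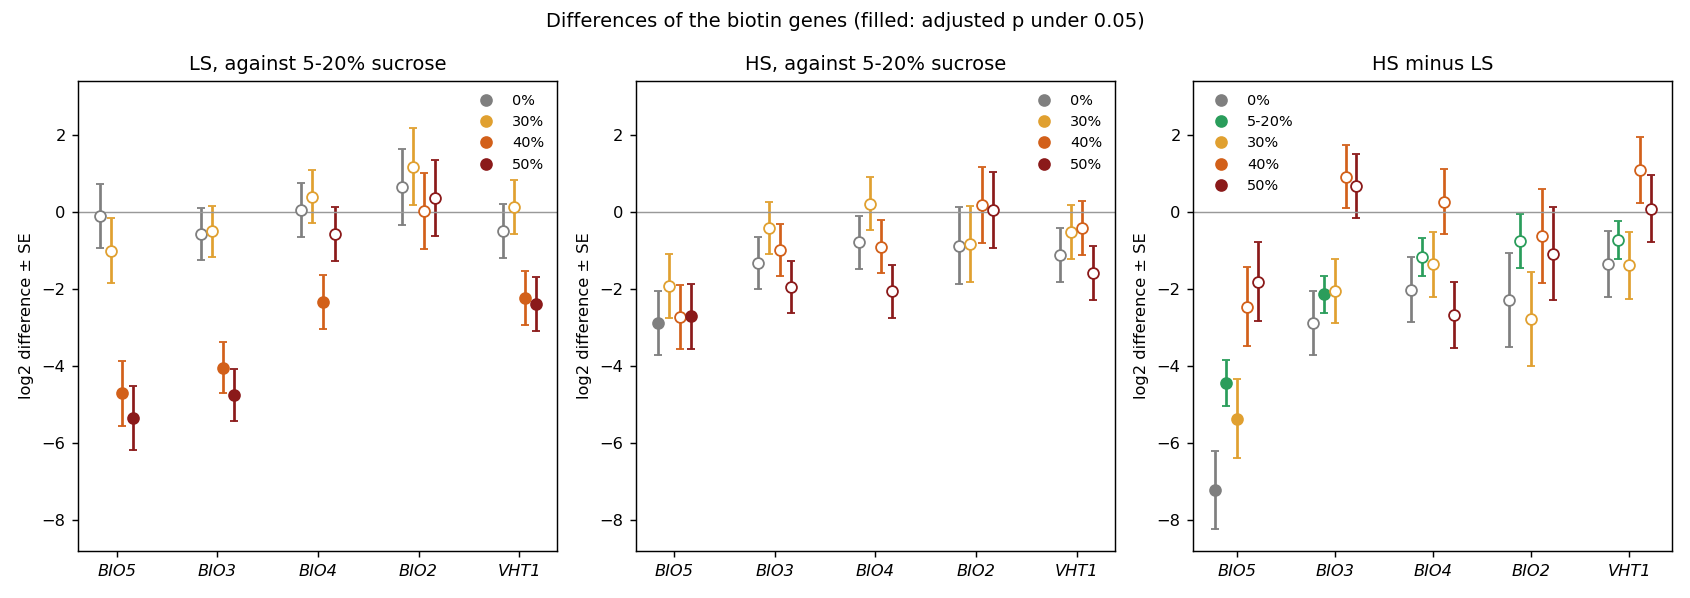
Log2 difference of each biotin gene from 5 to 20% sucrose in LS and in HS, and of HS from LS at equal sucrose. Bars are standard errors of the fit, and points are filled where the adjusted p is under 0.05. The filled LS points lie at 40 and 50% sucrose, and the filled HS points are BIO5 at 0 and 50%. Between the yeasts BIO5 is filled at 0, 5 to 20 and 30%, and BIO3 at 5 to 20%.

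The HS comparisons against 5 to 20% sucrose gave calls for BIO5 alone. At 0% sucrose BIO5 fell by 2.88 ± 0.83, 7.34-fold (adjusted p = 0.0364), 1 of 5 genes where 2.84% of all probe sets were lower. That call was lost with any 1 of its 8 arrays left out, with adjusted p-values from 0.0505 to 0.423, while the difference stayed between -3.23 and -2.52. The other 4 genes differed by -1.32 to -0.79 at 0% and did not pass (adjusted p from 0.305 to 0.716). The median over all probe sets was -0.31 there.

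At 30% sucrose no HS gene was called, with 0.0182% of all probe sets called, and 1 gene had an unadjusted p under 0.05. That gene was BIO5 at -1.93 ± 0.83, below its 6 base arrays without overlap. At 40% again 0 of 5 passed, with 2.42% called, and BIO5 stood at -2.73 ± 0.83 (adjusted p = 0.0991), its only unadjusted p under 0.05 among the 5. At 50% BIO5 fell by 2.71 ± 0.83, 6.56-fold (adjusted p = 0.0337), 1 of 5 genes where 7.06% of all probe sets were lower. BIO4 at -2.06 ± 0.69 (adjusted p = 0.0505) and BIO3 at -1.95 ± 0.67 (adjusted p = 0.0564) lay just outside the threshold there. VHT1 differed by -1.58 ± 0.70 (adjusted p = 0.146) and BIO2 by 0.05 ± 0.99. From 40 to 50% none was called (0 at an unadjusted p under 0.05), with 0.0182% of all probe sets called.

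The HS calls depended on the arrays in the fit. The spread is estimated over both yeasts, so LS arrays also enter the HS tests, and their part was not tested by itself. BIO5 at 50% kept its call in 2 of 8 fits with an array left out, those without HS 5% replicate 2 or HS 20% replicate 1, and BIO3 gained one without HS 50% replicate 1 (adjusted p = 0.0416). Without the 6 LS arrays, BIO5 was called lower at 0, 40 and 50%, with 20%, 12.1% and 25.9% of all probe sets called lower. BIO3, BIO4 and VHT1 were then called lower at 50% as well.

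The second question was how the yeasts differ at equal sucrose. BIO5 was lower in HS at 0%, with a difference of -7.22 ± 1.02 on the log2 scale, or 149-fold (adjusted p = 0.00291, n = 2 and 2 arrays in limma's fit). It was 1 of 5 genes called where 0.6% of all probe sets were lower and 0.818% were called in all. At 5 to 20% the difference was -4.44 ± 0.59, 21.8-fold (adjusted p = 0.000219), and at 30% it was -5.37 ± 1.02, 41.3-fold (adjusted p = 0.0335). The 30% call was lost in 3 of 4 fits with an array left out, all but the one without LS replicate 1, and the 0% call without HS replicate 1 (adjusted p = 0.138).

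BIO3 was lower in HS at 5 to 20% sucrose, with a difference of -2.14 ± 0.47, 4.40-fold (adjusted p = 0.0169), without overlap of the 6 and 6 arrays. This call was lost in 4 of 12 fits with an array left out, LS 20% replicate 2, HS 5% replicate 2, HS 10% replicate 1 or HS 20% replicate 1 (adjusted p from 0.0544 to 0.0696). It and BIO5 made 2 of 5 called lower there, against 2.16% of all probe sets lower and 3.2% called in all. The other differences at 5 to 20% were -1.17 ± 0.49 for BIO4, -0.76 ± 0.70 for BIO2 and -0.73 ± 0.50 for VHT1, and did not pass (adjusted p from 0.197 to 0.570). Without the 6 arrays all 5 genes were called lower in HS at 5 to 20%, where 9.6% of all probe sets were. The differences were then -4.62 for BIO5, -2.37 for BIO3, -2.03 for BIO4, -2.06 for BIO2 and -1.29 for VHT1. At 30% BIO5 was 1 of 5 called, where 0.109% of all probe sets were lower and 0.146% were called in all.

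At 0% and 30% the HS and LS arrays of each of the 5 genes did not overlap, with HS below LS. How many of all probe sets do the same was not counted, so the lack of overlap is no result about the biotin genes. With 2 arrays on each side it was no call for BIO3, BIO4, BIO2 or VHT1. These differed by -2.88 to -1.35 at 0% and by -2.77 to -1.36 at 30%. At 40 and 50% none of the 5 was called, with 1 unadjusted p under 0.05 at each and 3.87% and 0.964% of all probe sets called. At 40% BIO5 was at -2.46 ± 1.02 (adjusted p = 0.224), whereas BIO3 and VHT1 were higher in HS by 0.92 and 1.09 without passing. At 50% BIO4 differed by -2.67 ± 0.85 (adjusted p = 0.126), the largest of the 5 there. BIO5 was called lower in HS at 50% without LS 50% replicate 2, by -4.21 on the log2 scale (adjusted p = 0.0199). Without the 6 arrays the genes called lower in HS were BIO5, BIO3, BIO4 and BIO2 at 0% (7.31% of all probe sets), BIO5 at 30% (0.509%) and 40% (15.8%), and BIO5 and BIO4 at 50% (10.1%).

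Whether the responses themselves differ between the yeasts was tested as the HS response minus the LS response. No biotin gene was called in limma's fit at 0, 30, 40 or 50%, with 1, 0, 1 and 2 genes at an unadjusted p under 0.05. Of all probe sets 0.655%, 0%, 0.418% and 0.491% were called. At 40% all 5 differences were positive, meaning a less negative or more positive response in HS, with BIO3 at 3.05 ± 0.95 (adjusted p = 0.153) and BIO5 at 1.98 ± 1.18 (adjusted p = 0.530). At 50% BIO5 was called without LS 50% replicate 1, at 5.04 (adjusted p = 0.00468). The falls at 40% were thus not shown to differ between LS and HS in this fit. Without the 6 arrays 4 genes were called there, where 14.7% of all probe sets were called higher. BIO3 stood at 3.28 ± 0.78, VHT1 at 2.38 ± 0.64, BIO4 at 2.30 ± 0.52 and BIO5 at 2.16 ± 0.67 in that fit. At 50% BIO3 alone was then called, at 3.03 (adjusted p = 0.0477), against 6.66% of all probe sets called higher.

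Of the 9 other genes of biotin use and control, 8 were measured, and DUR1,2 (urea amidolyase) had no probe set under its symbol. VHR1, the activator of VHT1 and BIO5, moved opposite to those targets in LS. Its LS ratios were 0.551 to 0.950 on the 10 arrays up to 30% sucrose, 2.73 and 2.05 at 40%, and 5.06 and 1.84 at 50%, without overlap. It rose by 1.57 ± 0.49 at 40% (adjusted p = 0.0320) and by 1.94 ± 0.49 at 50% (adjusted p = 0.00790). In HS its ratios were 0.793 to 1.69 up to 30%, 2.08 and 0.979 at 40%, and 2.09 and 2.31 at 50%, and it was not called in the chosen fit. Both HS arrays at 50% were above all HS arrays up to 30%. A difference between its responses in LS and HS was not called in that fit either, so its rise was not shown to be particular to LS. Under quantile normalization, where 8.51% of all probe sets were called in LS at 50%, the call of VHR1 there was lost (1.31 ± 0.43, adjusted p = 0.0640).

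BPL1, the ligase that attaches biotin to proteins, fell by 1.91 ± 0.62 in LS at 40% (adjusted p = 0.0365) and by 1.90 ± 0.62 in HS at 50% (adjusted p = 0.0430). Its LS ratios were 0.463 and 0.331 at 40%, against 0.390 to 2.68 at 5 to 20%, so the groups overlapped. PYC1, a pyruvate carboxylase, rose by 2.14 ± 0.68 in LS at 50% (adjusted p = 0.0300). Under quantile normalization BPL1 in LS at 40% (adjusted p = 0.0502) and PYC1 (adjusted p = 0.197) lost their calls. VHR2, a relative of VHR1, rose by 2.82 ± 0.73 in HS at 50% (adjusted p = 0.0133), with ratios of 3.66 and 2.85 against 0.332 to 0.573 at 5 to 20%. Its HS ratios were also above those base arrays at 0% (2.42 and 0.999), 30% (0.606 and 0.826) and 40% (1.38 and 1.85). It was not called at these concentrations in the chosen fit. The measured carboxylases other than PYC1 (ACC1, HFA1 and PYC2) and ARC1, a biotinylated protein, were not called in any of the 19 comparisons of the chosen fit. ACC1 was called higher in LS at 50% without the 6 arrays (1.68 ± 0.58), where 49.7% of all probe sets were called. PYC2 and ARC1 were then called lower in LS at 40% (-1.37 and -1.52) and in HS at 50% (-1.77 and -1.30), where 54% and 47.3% were.

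**Figure D3:**
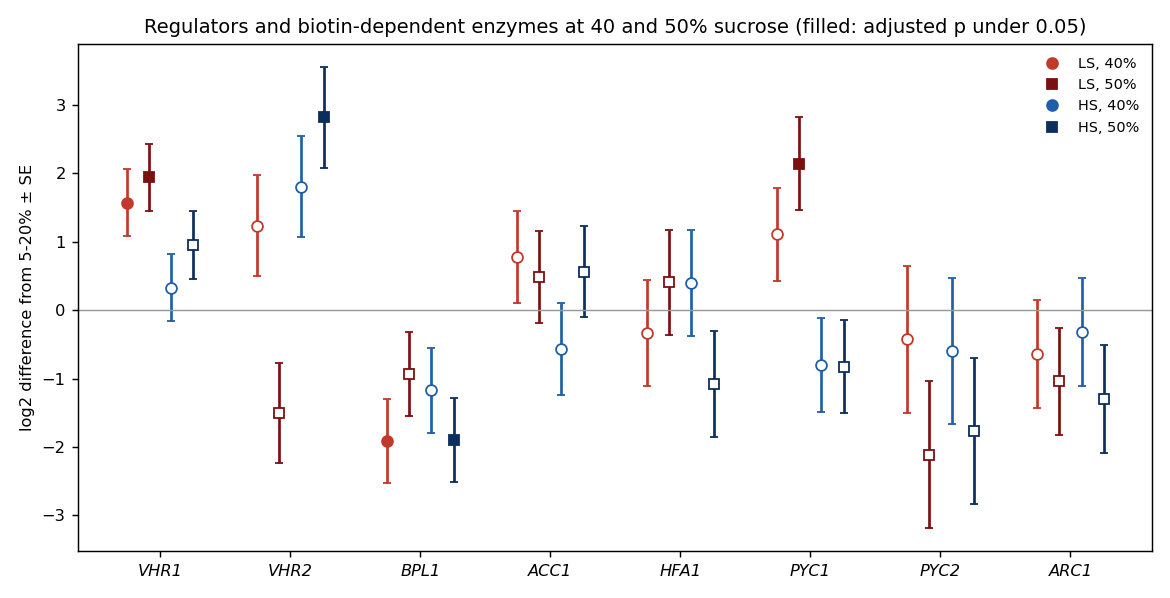
Log2 difference from 5 to 20% sucrose for the 8 measured genes of biotin use and control in LS and HS, with filled marks where the adjusted p is under 0.05. VHR1 is filled in LS at 40 and 50%, where its targets BIO5 and VHT1 were lower.

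The run BIO5, BIO4, BIO3 was set against the 5 protein-coding genes on either side of it. From outside inwards these are BRE5, POP2, NOG2, ESF2 and HOL1 before BIO5, and PUL4, PUL3, YNR061C, FRE4 and MNT4 after BIO3. PUL3 and PUL4 had no probe set under their symbols. HOL1, a transporter next to BIO5, and MNT4, a putative mannosyltransferase next to BIO3, were not called in any comparison of the chosen fit. At LS 40% HOL1 differed by -1.37 ± 0.97 (adjusted p = 0.355) and MNT4 by -0.77 ± 0.58 (adjusted p = 0.388). HOL1 depended on the 6 arrays, since without them it was called lower in LS at 40% by 2.85 ± 0.42, also in LS at 50% and in HS at 0 and 50%. MNT4 was then called lower in HS at 50%.

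FRE4, a ferric reductase gene 1 place beyond MNT4, was called in LS and HS. Its LS ratios were 1.23 to 17.3 on the 10 arrays up to 30% sucrose, 0.109 and 0.1 at 40%, and 0.0793 and 0.259 at 50%. It fell by 5.73 ± 0.82 at 40% (adjusted p = 0.000158) and by 5.28 ± 0.82 at 50% (adjusted p = 0.000232). In HS it read 0.0619 and 0.0472 at 0%, 0.184 to 0.819 at 5 to 20%, 0.503 and 1.18 at 30%, 5.51 and 2.23 at 40%, and 2.41 and 0.221 at 50%. It fell by 2.92 ± 0.82 at 0% in HS (adjusted p = 0.0309) and was lower in HS than LS by 4.92 ± 1.01 at 0% (adjusted p = 0.0268) and 3.77 ± 0.58 at 5 to 20% (adjusted p = 0.00106). Under quantile normalization the HS fall at 0% lost its call (adjusted p = 0.0734). At 40% FRE4 was higher in HS by 5.07 ± 1.01 (adjusted p = 0.00934), where none of the 5 biotin genes was called.

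Beside BIO2, IMA1, an isomaltase, rose in LS at 0, 40 and 50% by 4.68, 3.63 and 4.25, and in HS at 0 and 50% by 4.31 and 2.67 (adjusted p from 0.000691 to 0.0214). MAL11, a maltose transporter gene 2 places beyond IMA1, rose in LS by 4.75 ± 0.87 at 40% and 4.70 ± 0.87 at 50%. ZUO1, a ribosome-bound chaperone on the other side of BIO2, fell in LS by 2.19 ± 0.60 at 40% and by 1.97 ± 0.60 at 50%. YOR1, a drug efflux pump gene, rose in LS by 2.68 ± 0.75 and 2.97 ± 0.75 there. Beside VHT1, SPT4, an elongation factor, fell by 2.63 ± 0.62 and 2.40 ± 0.62 in LS at 40 and 50%, and by 2.26 ± 0.62 in HS at 50%. ROM1, an exchange factor for Rho1, rose by 3.09 ± 0.81 in LS at 50% and by 3.24 ± 0.81 in HS at 0%, and YGR067C by 5.67 ± 1.62 in HS at 0%. Over the 24 measured neighbours of all 3 loci, 3 were lower and 3 higher in LS at 40%, where 17.9% of all probe sets were called. At LS 50% the counts were 3 lower and 4 higher, against 22.1%. There the scaling and the arrays moved them, to 1 lower and 1 higher under quantile normalization (8.51% of all probe sets) and to 8 lower and 5 higher without the 6 arrays (49.7%). MAL11, ZUO1, YOR1, SPT4 and ROM1 lost their LS 50% calls under quantile normalization, and IMA1 its LS 0% call (adjusted p from 0.0662 to 0.199). At LS 40% the counts were 2 lower and 3 higher under quantile normalization, with ZUO1 lost (adjusted p = 0.0580), and 11 lower and 6 higher without the 6 arrays (54%). In HS they were 1 lower and 3 higher at 0% (8.35% of all probe sets), 0 at 40%, and 1 lower and 1 higher at 50% (15.1%). The HS counts without the 6 arrays were 5 lower and 5 higher at 0% (34.1%), and 8 lower and 4 higher at 50% (47.3%).

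**Figure D4:**
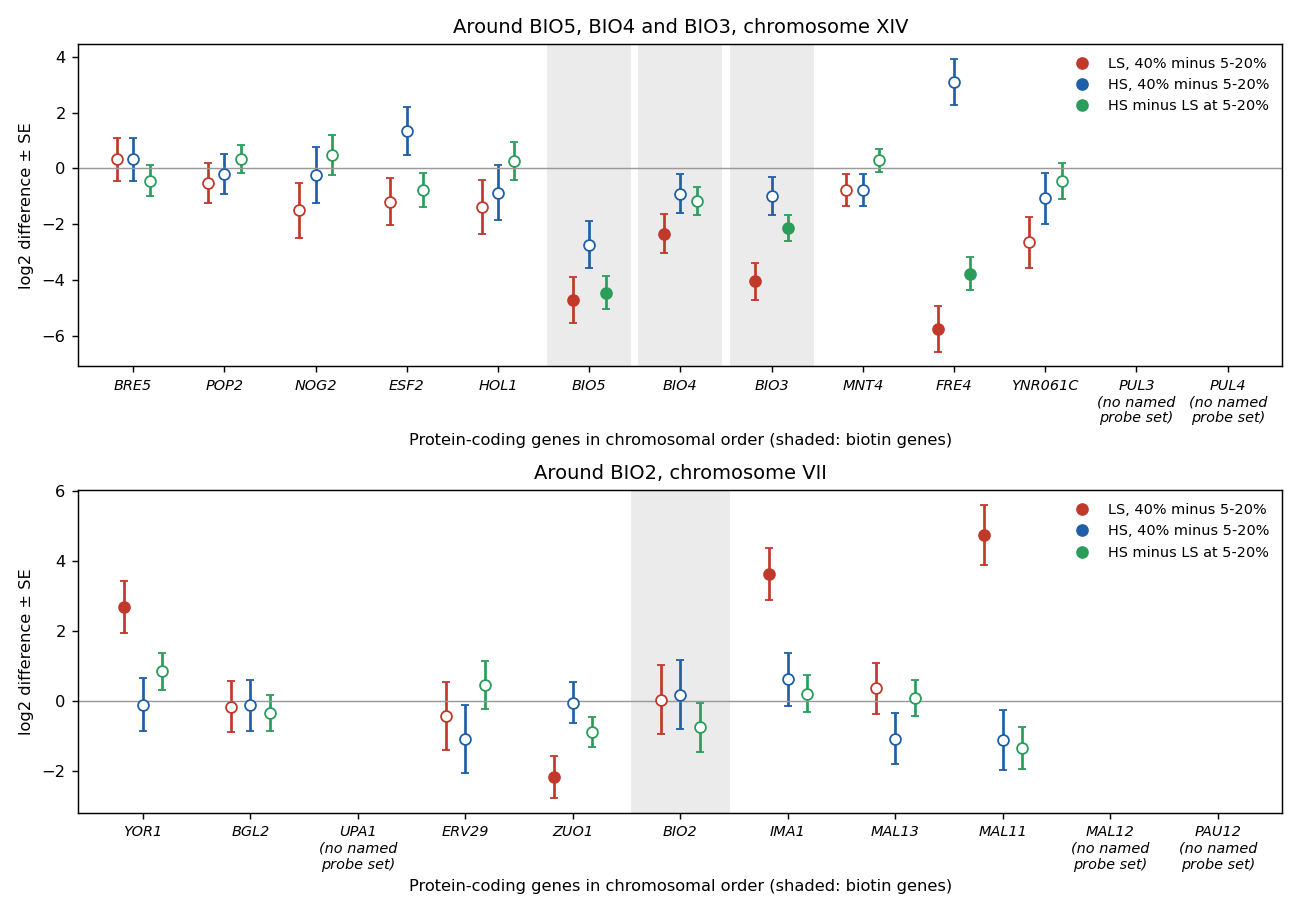
Log2 difference in LS and HS at 40% sucrose from 5 to 20%, and of HS from LS at 5 to 20%. BIO5, BIO4 and BIO3 with their neighbours, and BIO2 with its own, stand in chromosomal order, and VHT1 is not drawn. Marks are filled where the adjusted p is under 0.05, bars are standard errors, and genes without a probe set are left blank. In LS BIO5, BIO4, BIO3 and FRE4 are low, while HOL1 and MNT4 beside the run are unfilled.

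Likeness among the 5 genes was described by Pearson's r of log2 values over the 22 arrays other than the 6, and within each yeast (8 LS and 14 HS arrays). These arrays share the yeasts and the sucrose steps, and r is given with no test. BIO3 and VHT1, on different chromosomes, were the most alike pair over the 22 arrays (r of 0.937) and within HS (0.943). Within LS their r was 0.944, below BIO5 with BIO4 (0.995), BIO5 with VHT1 (0.992) and BIO4 with VHT1 (0.984). Among the 5448 other genes, over the 22 arrays, VHT1 ranked 4 for BIO3, BIO3 ranked 9 for VHT1, and BIO5 ranked 4 for BIO2. Other members ranked lower, some of them not by far. For BIO5, BIO4 ranked 17 and BIO2 ranked 35. For BIO4, VHT1 ranked 30, BIO3 ranked 39 and BIO5 ranked 48. Far lower were BIO5, at 336 for BIO3 and 375 for VHT1, and BIO2, at 1085 for BIO3, 1062 for VHT1 and 990 for BIO4. BIO5 and its neighbour BIO4 had r of 0.648 within HS. BIO2 was the least like the rest in HS, with r of -0.0085 with BIO4, 0.443 with BIO5, 0.499 with BIO3 and 0.612 with VHT1.

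The genes outside the 5 with the most similar pattern over the 22 arrays were the following, 3 for each. For BIO5 they were ERG13, YCH1 and SPE1, with r of 0.916, 0.915 and 0.908. For BIO3 they were TAT2, LST4 and PRS5, with r of 0.951, 0.942 and 0.941. For BIO4 they were RBD2, ELP4 and RDR1, with r of 0.953, 0.945 and 0.941. The nearest genes to BIO2 were SKY1, CCP1 and COX23, with r of 0.903, 0.873 and 0.857. Those nearest to VHT1 were PRS5, HOL1 and ERG1, with r of 0.950, 0.949 and 0.949. Over all 28 arrays these values dropped, to 0.131 for SPE1 with BIO5 and to 0.711 for TAT2 with BIO3, the lowest and highest of the 15.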

How the data were processed

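The deposited values are ratios on a linear scale, 0.01 to 532.3. Per the series design text, the authors made them in GeneSpring v7.0 by a per-chip scaling, which used positively valued genes other than those of S. pombe, followed by a per-gene scaling. A check found a median of 1 (within 0.006) in 97.7% of S. cerevisiae probe sets. The sources used here do not give the summary of probe signals. Probe sets were named from the platform annotation and updated through RefSeq (R64), which gave 12 newer symbols and the gene order. Array build coordinates were not used.

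Log2 ratios, with no further scaling, were fitted with limma 3.58.1 (R 4.3.3), 1 mean per group (14 groups) and 14 residual and 5.41 prior degrees of freedom. A difference subtracts the group named second. Each of 19 comparisons was tested 2-sided, its p-values adjusted over 5498 probe sets by Benjamini-Hochberg, and called below an adjusted p of 0.05. The fit was tested on data simulated for LS at 40% against 5 to 20%, with 50 probe sets changed at each size. It called 0%, 18%, 78% and 90% of those set to differ by 1, 2, 4 and 6 on the log2 scale. Of 5298 unchanged probe sets it called 0.0189%. A missing call therefore does not show that a gene was unchanged. The number of changed probe sets was set, so these rates need not hold in the real data. Errors are standard errors of the fit.

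The members, lists and comparisons were chosen with earlier results of these data known. Named by rule were the 5 members, called genes among 9 of biotin use and control and among 30 neighbours (5 on each side), up to 4 called of 17 iron regulon genes in a comparison, and the 3 genes most like each member. Alternatives were another scaling (quantile, median centring), an offset of 0.0564 before the log, moderation with a variance trend, a replicate block, fits of fewer groups, 5% sucrose as the base, other probe set filters, and arrays left out.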

Additional observations from a re-analysis of the deposited data

Results flagged for a closer look

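Among the chromosomal neighbours of the biotin genes, 3 responses to sucrose differed between the yeasts by the test of the difference itself (limma, adjusted over 5498 probe sets). FRE4, 2 places from BIO3 on chromosome XIV, had an HS response minus LS response of 8.84 ± 1.17 on the log2 scale at 40% sucrose (adjusted p = 0.00177) and 6.12 ± 1.17 at 50% (adjusted p = 0.0182). Both were called without the 6 LS arrays that stand apart, at 8.94 and 7.07. MAL11, a maltose transporter gene 3 places from BIO2, had a difference of -5.86 ± 1.23 at 40% (adjusted p = 0.0364). The call was lost under quantile normalization (-3.98 ± 1.24, adjusted p = 0.129) and kept without the 6 arrays (-6.10 ± 0.80). Its LS ratios at 40% were 35.8 and 23.4, and its HS ratios 0.122 and 0.311. Groups of 2 arrays were too small for a check of single arrays against their group.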

How the results depend on the processing

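Of 241 alternative values for the 13 calls, all kept their sign and 190 stayed past the threshold. BIO5 and BIO3 in LS at 40 and 50% sucrose were called under all 11 alternatives. The counts below are biotin genes called of 5, and where no cause follows from fewer or more samples or features in a fit, the cause was not tested. With only the compared groups in the fit the count was 2 for LS at 40%. For HS it was 4 at 0%, 2 at 40% and 4 at 50%. For HS against LS it was 0 at 0%, 1 at 5 to 20%, 0 at 30% and 1 at 40%. That fit called 198 probe sets in all for LS at 40% (984 in the chosen fit). It called 2152 for HS at 0% (459 in the chosen fit), so the 4 there came with many more calls among all probe sets. Counts given here without a share of all probe sets are no result about the biotin genes by themselves. With each yeast fitted alone the count was 2 for LS at 40% and 1, 1 and 4 for HS at 30, 40 and 50%. Without the 6 LS arrays it was 1 for HS at 40%, 4 for HS at 50%, 4, 5, 1 and 2 for HS against LS at 0, 5 to 20, 40 and 50%, and 4 and 1 for the response differences at 40 and 50%. With 5% sucrose alone as the base it was 2 for LS at 40% and 0 for HS against LS. In the latter 0 of all probe sets were called, and BIO5 differed by -4.10 with an adjusted p of 0.337. A variance trend gave 0 for HS at 0%, 3 for HS at 50% and 0 for HS against LS at 30%, and S. pombe probe sets in the fit gave 0 in these 3. Quantile normalization gave 1 for HS at 40%, where 15.1% of all probe sets were called (2.42% in the chosen fit). Median centring (15% of all probe sets called) and the omission of probe sets with a median below 1 each gave 2 for HS at 50%.

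With each array left out in turn the count was 2 to 4 for LS at 40% and 2 to 3 at 50%. It was 0 to 1 for LS at 50 against 40%, for HS at 50%, for HS against LS at 0, 30 and 50%, and for the response difference at 50%. It was 1 to 2 for HS against LS at 5 to 20%, and 0 for HS at 0%. VHT1 lost its LS 40% call also with S. pombe probe sets in the fit (adjusted p = 0.0535, count 3). VHT1 at LS 50% lost its call under quantile normalization, with only the compared groups, with each yeast alone and with 5% sucrose as the base (adjusted p from 0.0729 to 0.269, count 2), and without the 6 arrays that count was 4. The replicate block gave 2 for HS at 50%, with BIO4 added (adjusted p = 0.0332), and changed no other call of a biotin gene. The probe sets called overall ranged across the alternatives from 198 to 2968 for LS at 40% (984 in the chosen fit), from 137 to 2731 for LS at 50% (1217), from 234 to 2152 for HS at 0% (459), from 64 to 1181 for HS at 40% (133) and from 414 to 2603 for HS at 50% (828). For HS against LS they ranged from 0 to 650 at 0% (45), 0 to 845 at 5 to 20% (176), 0 to 135 at 30% (8), 98 to 1632 at 40% (213) and 0 to 955 at 50% (53). With an array left out they ranged from 253 to 1124 for LS at 40%, 805 to 1564 at 50%, 60 to 375 for HS at 0%, 30 to 91 at 40% and 156 to 674 at 50%, and for HS against LS from 0 to 486 at 0%, 63 to 701 at 5 to 20%, 0 to 58 at 30%, 13 to 107 at 40% and 7 to 404 at 50%. Same-numbered arrays deviated together (r over 0.1) in 42 of 91 pairs of groups, 18 of 21 within HS and 15 of 21 within LS. The chosen fit did not take the numbers as pairs, so it leaves this shared deviation in the spread. The replicate block fitted a replicate effect common to both yeasts, and an effect within each yeast was not fitted. Another probe set per gene was not run, since each biotin gene has 1.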

Other observations

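VHT1 is known as a target of the iron regulators Aft1 and Aft2 in S. cerevisiae, so 17 genes of the iron regulon were read beside it. In LS at 40% sucrose 5 were lower and 1 higher in limma's fit, where 17.9% of all probe sets were called. ENB1, a siderophore transporter, fell by 3.34 ± 0.58 on the log2 scale (adjusted p = 0.000720) and FRE2, a ferric reductase, by 3.29 ± 0.70 (adjusted p = 0.00296). FTR1, the iron permease, fell by 2.67 ± 0.63 (adjusted p = 0.00617). HMX1, a heme oxygenase, rose by 3.19 ± 0.67 (adjusted p = 0.00288). Without the 6 LS arrays that stand apart 11 were lower and 1 higher, where 54% of all probe sets were called.

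At LS 50% 2 were lower and 1 higher, against 22.1% of all probe sets. FET3, the multicopper oxidase, fell by 3.88 ± 1.0 and SMF3, a vacuolar metal transporter, by 3.51 ± 0.69, and HMX1 rose by 3.20 ± 0.67. FET3 read 0.502 and 0.0304 at LS 50%, the low value from an array that stands apart, and 0.477 to 5.03 at 5 to 20%, so the groups overlapped. Its fall was 2.89 ± 0.73 without the 6 arrays (adjusted p = 0.00643), and under quantile normalization it differed by -3.15 ± 0.99 and was not called (adjusted p = 0.0525). The LS 50% counts were 1 lower and 1 higher under quantile normalization (8.51% of all probe sets), and 6 lower and 2 higher without the 6 arrays (49.7%). In HS at 50% 2 were lower and 1 higher, against 15.1%, with FRE2 and SMF3 lower at -2.22 ± 0.70 and -2.23 ± 0.69 and HMX1 higher by 2.36 ± 0.67. FRE2 lost that call under quantile normalization (adjusted p = 0.0562), and without the 6 arrays 9 were lower and 1 higher (47.3%). FIT2, a cell wall mannoprotein, was higher in HS than LS at 5 to 20% by 2.52 ± 0.66, and HMX1 was lower there at -1.82 ± 0.48. HMX1 was also lower in HS at 40%, at -3.77 ± 0.83, a call lost under quantile normalization (adjusted p = 0.0549). The counts in HS against LS without the 6 arrays were 6 lower and 1 higher at 5 to 20% (15.4%), and 2 lower and 9 higher at 40% (29.7%). The difference between the responses of LS and HS was not called for any of the 17 genes at 0, 30, 40 or 50% sucrose, with 0, 1, 3 and 1 at an unadjusted p under 0.05 in the chosen fit. Without the 6 arrays 8 were called higher and 2 lower at 40%, where 27.5% of all probe sets were called, and 2 lower at 50% (12.7%).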
